A study of Rattus norvegicus with 24 samples.

Results

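Cell division genes were followed in mRNA libraries from 2 nuclei of the rat brain that take part in stress responses. One was the hypothalamic paraventricular nucleus (PVN) and the other the central amygdala (CEA). The set held 36 genes that are named for DNA replication or mitosis, chosen by gene symbol with earlier results of these data known. Of them, 35 were found among the 35032 genes of the count table. Ccnb2 was not matched, and no value is given for it. The rats were male Sprague-Dawley animals, bought at 7 weeks of age and kept for a further week before the experiment, in 4 treatments. Rats of all 4 treatments were restrained for the same time. Normal controls (NC) were not operated on. The other rats had part of the liver removed under isoflurane (HT), alone or with electroacupuncture at the Zusanli and Sanyinjiao points before and after surgery while awake in restraint (EA), or with needles in place and no current (SEA). HT, EA and SEA rats are called operated below, since all had the hepatectomy, and the design cannot tell it apart from the anaesthesia that went with it. Each of the 8 groups of region and treatment had 3 libraries, so each region had 3 NC and 9 operated libraries. The labels do not tie the libraries to named rats, and p-values measure the spread between these libraries. The paper states that its brain samples came from different animals of one batch. It does not say whether this covers the 2 regions, and the regions were compared as unpaired.

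A dividing cell copies its DNA in S phase with the MCM helicase, the sliding clamp PCNA and enzymes that make nucleotides. It then enters mitosis under cyclin-dependent kinase 1, condenses and attaches its chromosomes to the spindle, passes the spindle checkpoint and splits. Adult neurons do not divide, and most dividing cells of the adult brain outside the neurogenic zones are oligodendrocyte precursors, with microglia and vessel cells among the rest. Many transcripts of mitosis are made for a short part of the cycle, while several replication proteins, PCNA among them, also serve DNA repair.

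The shallowest library held 13152772 counts and the deepest 18607032, which is 1.41 times as many. Levels below are CPM, counts scaled to the library total with TMM factors, and comparisons between genes use CPM per kb of gene model. A single count was worth 0.0527 to 0.0788 CPM, and where a gene was not counted its level could still reach 0.158 to 0.236 CPM, the worth of 3 counts, for counting error only. The regional labels held in the data. All 6 PVN neuroendocrine genes, such as Sim1 and Otp, were lower in the CEA by the test described for regions, and all 8 genes of the CEA and striatum list, such as Drd1 and Adora2a, were higher. The CEA libraries spread more than those of the PVN, with mitochondrial shares of counts from 3.798% in EA replicate 2 to 14.4%, against 7.07% to 8.77% in the PVN. The choroid plexus gene Ttr ran from 3.79 to 1692 CPM over the operated CEA libraries.

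The members were low in these tissues. Only Pcna stood far above the rest, with a mean of 35.6 CPM per kb over the 24 libraries. Kif20a followed with 4.58 CPM per kb, Tyms with 4.56 and Aurka with 2.46. At the other end Cenpf had 0.0620 CPM per kb, Melk 0.0774 and Bub1b 0.0813. Top2a was counted 1 to 80 times per library, Pbk 0 to 16 times and Melk 0 to 13 times, so that single libraries carry large counting errors for these genes. The summed level of all measured members was 134 ± 4.48 CPM in PVN NC (SD, n = 3) and 111 ± 5.76 in the operated PVN libraries (SD, n = 9). In the CEA it was 144 ± 13.6 in NC and 120 ± 12.2 in the operated libraries. The lowest PVN NC sum, 131 CPM, was above the highest operated one, 122 CPM, whereas the CEA groups overlapped, at 134 to 160 CPM in NC and 101 to 139 CPM in operated libraries. The DNA replication genes made up much of these sums, at 65.9 CPM in PVN NC, with 63.7 CPM in the operated PVN libraries.

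The promoters of the members were read from RefSeq for the rat assembly GRCr8, as 250 bases before to 50 bases after each start. Of the 36 genes 31 had an entry, and Ccna2, Tpx2, Pbk, Aurkb and Rrm2 had none. Genes of mitosis are known to carry a CHR element, bound by the complexes that time their transcription, together with CCAAT boxes bound by NF-Y, and genes of replication to carry E2F sites. TTTGAA, the core of the CHR element, was found on either strand in 17 of 31 members (54.8%) and in 18.3% of all 33469 promoters. Among members outside the replication role it was in 16 of 25, and among replication members in 1 of 6. CCAAT was found in 24 of 31 members (77.4%), against 37.5% of all promoters. It was common in both kinds, in 20 of 25 members outside the replication role and in 4 of 6 replication members. One of the E2F forms GGCGGGAA, TTTGGCGC or TTTCGCGC was found in 8 of 31 members (25.8%), against 2.68% of all promoters. They were in 5 of 6 replication members and in 3 of 25 others. These are matches of letters, with no test, and the E2F forms can overlap each other.

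To show both kinds of promoter, the 150 bases before the start are given for Top2a, Cdk1 and Mki67, mitosis genes with lower fitted levels after surgery in both regions, and for Mcm6 and Tyms of the replication role. They run 5′ to 3′ on the strand of the gene, and capitals mark the letters of a motif on either strand, so that CCAAT may read ATTGG and TTTGAA may read TTCAAA.
Top2a: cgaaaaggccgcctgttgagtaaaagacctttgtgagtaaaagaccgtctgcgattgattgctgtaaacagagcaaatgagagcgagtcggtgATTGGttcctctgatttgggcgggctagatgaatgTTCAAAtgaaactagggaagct
Cdk1: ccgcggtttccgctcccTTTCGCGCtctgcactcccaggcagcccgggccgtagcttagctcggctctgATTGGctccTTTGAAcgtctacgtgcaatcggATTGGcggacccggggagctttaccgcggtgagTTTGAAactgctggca
Mki67: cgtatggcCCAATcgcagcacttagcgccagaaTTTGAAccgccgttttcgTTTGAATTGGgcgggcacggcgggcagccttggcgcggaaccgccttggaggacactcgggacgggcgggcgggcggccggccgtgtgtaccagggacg
Mcm6: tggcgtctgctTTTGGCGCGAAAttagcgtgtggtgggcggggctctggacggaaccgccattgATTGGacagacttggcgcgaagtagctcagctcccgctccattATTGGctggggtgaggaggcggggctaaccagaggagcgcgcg
Tyms: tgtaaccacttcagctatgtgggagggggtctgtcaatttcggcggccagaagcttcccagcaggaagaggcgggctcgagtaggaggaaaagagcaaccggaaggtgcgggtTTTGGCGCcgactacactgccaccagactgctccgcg
The stretches lie at chr10:84473094-84473243 (minus strand) for Top2a, chr20:19265143-19265292 (plus strand) for Cdk1, chr1:199952594-199952743 (minus strand) for Mki67, chr13:42404353-42404502 (minus strand) for Mcm6 and chr9:120776084-120776233 (minus strand) for Tyms of GRCr8. The Top2a stretch holds 1 CCAAT box and 1 CHR core, the latter beginning 22 bases before the start. The Cdk1 stretch holds an E2F form 133 bases before the start, and CHR cores and CCAAT boxes nearer to it. The Mcm6 and Tyms stretches hold E2F forms and no CHR core, and that of Mcm6 also holds CCAAT boxes 86 and 43 bases before the start.

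To see how the operated brains differed from unoperated ones, all operated libraries of a region were set against its NC libraries. Most mitosis genes had lower fitted levels in operated rats in both regions, while the replication genes had medians closer to 0, and no single member passed the test after adjustment over all genes. In the PVN 0 of 30 members tested had an adjusted p under 0.05 (edgeR quasi-likelihood test, Benjamini-Hochberg), against 0.0639% of all genes tested. In the CEA the count was 0 of 33, against 0.0% of all genes. DESeq2 called 0 members in the CEA, where it called 0.0645% of all genes. In the PVN it called 13.9% of all genes and 0 members, but it gave 24 of the 30 members no adjusted p. These fits leave out genes with low counts, and 5 PVN members (Top2a, Ect2, Ckap2l, Cdk1 and Nusap1) and 7 CEA members (Pbk, Cdca3, Ect2, Ckap2l, Cenpf, Nusap1 and Rrm2) passed that filter only through their NC level. Counts and medians over members in every comparison of treatments, other than those of adjusted calls, were therefore taken from a fit without the filter, which held all 35 measured members and also called 0 of them in each. In that fit 30 of the 35 members had a lower fitted level in the operated PVN libraries, where 51.3% of all genes did, and the median log2 fold change was -0.59, against -0.01 for all genes. An unadjusted p under 0.05 was reached by 19 members that were lower and by 1 that was higher, Tyms. Of all genes, 9.96% were lower at that level and 10.7% higher. In the CEA 30 of 35 were again lower, against 49.1% of all genes, with a median of -0.68, against 0.01. There 16 members were lower at an unadjusted p under 0.05 and 0 were higher, where 1.42% of all genes were lower and 1.2% higher. The members were chosen with earlier results of these data known, so these shares describe the set and are no test of it. Since these are bulk libraries, fewer dividing cells and less of each transcript per cell cannot be told apart.

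**Figure D1:**
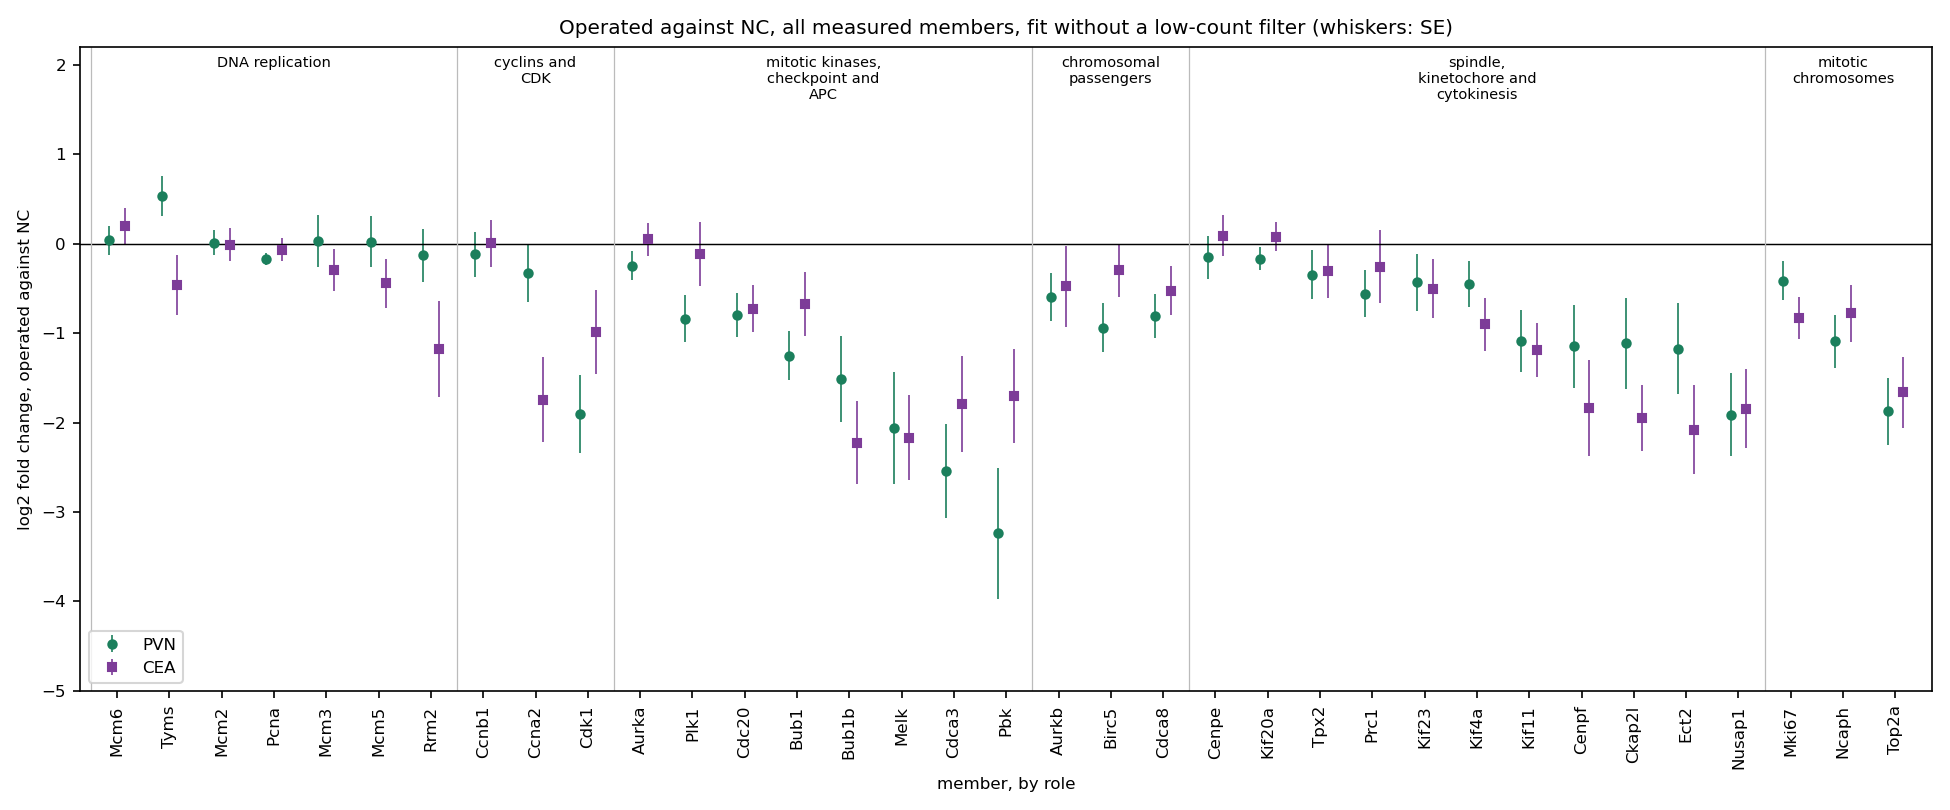
Log2 fold change of operated against NC libraries (vertical axis) for each of the 35 measured members (horizontal axis, grouped by role) in the PVN (circles) and the CEA (squares), from the fit without a low-count filter, with SE as whiskers. In the PVN the replication genes other than Tyms lie within 0.17 of 0, and the lowest value is that of Pbk in the PVN, -3.24.

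The NC and operated libraries did not overlap at all for several mitosis genes. In the PVN every NC library was above every operated one for 11 members (Birc5, Bub1, Cdca3, Cdca8, Kif11, Melk, Nusap1, Pbk, Pcna, Plk1 and Top2a), where 1.51% of all genes with a count showed this. In the CEA the same held for 9 members (Bub1b, Cdca3, Ckap2l, Ect2, Kif11, Melk, Mki67, Pbk and Top2a), against 0.274% of all genes. For 5 members, Cdca3, Kif11, Melk, Pbk and Top2a, it held in both regions, and these were 5 of the 14 genes in the whole table for which it did, 0.0521% of genes. As the set was chosen with earlier results of these data known, these shares are a description and no test. In neither region was a member lower in every NC library than in every operated one, as 1.51% of all genes were in the PVN and 0.223% in the CEA. All genes here are those with any count. Of 25947 such genes in the PVN 17211 passed the low-count filter, where 30 of 35 members did. In the CEA 17046 of 25153 genes and 33 members passed it.

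Top2a encodes the topoisomerase that untangles sister chromatids before they separate. Its CPM in the PVN was 1.52, 2.14 and 1.71 in NC, 0.599, 0.707 and 0.358 in HT, 0.381, 1.05 and 0.426 in EA, and 0.359, 0.0647 and 0.545 in SEA. CEA libraries had 1.98, 4.73 and 2.06 in NC, 0.522, 0.832 and 0.3003 in HT, 0.648, 1.54 and 1.76 in EA, and 0.593, 0.878 and 1.81 in SEA. Each NC library was above each operated one, and the single count in PVN SEA replicate 2 was the lowest of all. The log2 fold change of operated against NC was -1.88 in the PVN (SE 0.37, adjusted p = 0.0548) and -1.66 in the CEA (SE 0.40, adjusted p = 0.719) in the fit without a filter.

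Kif11, the motor that pushes the spindle poles apart, had the same order. It was at 1.01, 1.32 and 0.995 in NC, 0.359, 0.514 and 0.835 in HT, 0.254, 0.738 and 0.372 in EA, and 0.719, 0.453 and 0.424 in SEA CPM in the PVN, and at 1.799, 2.31 and 1.39 in NC, 0.653, 0.448 and 0.481 in HT, 0.864, 1.27 and 1.19 in EA, and 0.593, 1.004 and 1.02 in SEA CPM in the CEA. Its log2 fold change was -1.09 in the PVN (SE 0.33, adjusted p = 0.0785) and -1.19 in the CEA (SE 0.27, adjusted p = 0.9998). Cdca3, a factor that helps trigger entry into mitosis, was at 0.506, 0.932 and 0.885 CPM in PVN NC and between 0 and 0.485 CPM in the operated PVN libraries. In the CEA it was at 1.26, 0.651 and 0.928 CPM in NC and between 0.0659 and 0.552 CPM after surgery. The kinase Pbk was at 0.506, 0.439 and 0.663 CPM in PVN NC, between 0 and 0.242 CPM in the operated PVN libraries, and at 0.960, 0.888 and 0.862 CPM in CEA NC. These last levels rest on 16, 15 and 13 counts, and the operated PVN libraries held 0 to 4 counts of Pbk.

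Mki67, whose protein Ki-67 coats mitotic chromosomes and is the usual stain for dividing cells, differed between the regions in how cleanly its groups parted. In the PVN it was at 2.47, 5.48 and 3.81 in NC, 2.87, 2.57 and 3.46 in HT, 3.24, 2.898 and 3.09 in EA, and 2.69, 2.33 and 3.51 in SEA CPM, and NC replicate 1 lay among the operated libraries. The CEA levels were 4.797, 4.38 and 4.71 in NC, 3.33, 1.92 and 1.68 in HT, 3.74, 2.41 and 3.52 in EA, and 2.31, 2.26 and 2.52 in SEA CPM, with all NC libraries above all others. The log2 fold change was -0.41 in the PVN (SE 0.22, adjusted p = 0.226, and -0.09 without NC replicate 2) and -0.82 in the CEA (SE 0.22, adjusted p = 0.9998), and the difference between the regions was not called by the interaction test given below.

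Cdk1, the kinase that drives cells into mitosis, was at 0.696, 0.932 and 1.11 in NC, 0.1796, 0.386 and 0.0597 in HT, 0.698, 0.316 and 0.213 in EA, and 0.2396, 0.129 and 0.121 in SEA CPM in the PVN. The highest operated library, EA replicate 1, was level with the lowest NC library. The CEA levels of Cdk1 were 0.5997, 1.42 and 1.19 in NC, 0.457, 0.576 and 0.2403 in HT, 0.216, 0.668 and 0.907 in EA, and 0.264, 0.565 and 1.02 in SEA CPM, with overlap. Its log2 fold change in the fit without a filter was -1.91 (SE 0.43, adjusted p = 0.0599) in the PVN and -0.98 (SE 0.47, adjusted p = 1.0) in the CEA. Its partner cyclin B1 did not follow it. Ccnb1 was at 1.52, 2.47 and 1.88 in NC, 1.32, 2.12 and 1.85 in HT, 1.78, 1.32 and 2.395 in EA, and 1.38, 1.94 and 2.18 in SEA CPM in the PVN and at 1.86, 2.43 and 2.32 in NC, 1.76, 2.62 and 1.38 in HT, 2.09, 3.01 and 2.27 in EA, and 1.98, 2.63 and 2.29 in SEA CPM in the CEA, with every group overlapping the others, and log2 fold changes of -0.12 (SE 0.25) and 0.01 (SE 0.24).

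**Figure D2:**
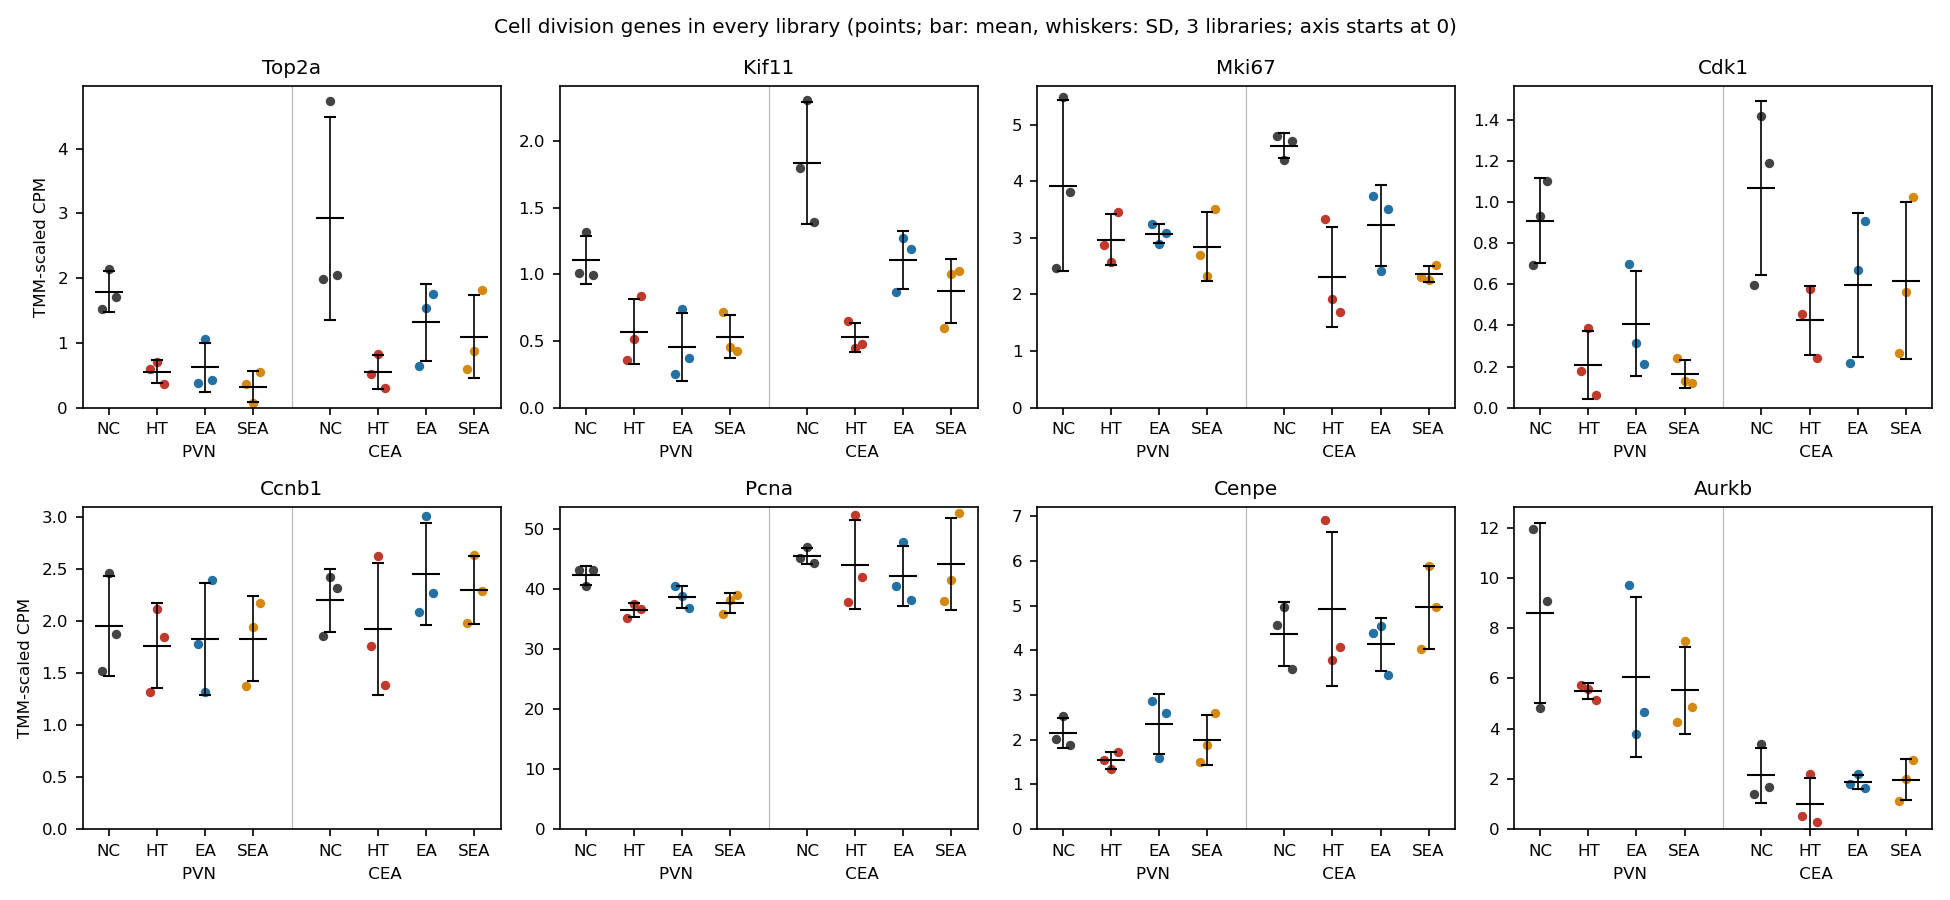
CPM (vertical axis, from 0) of 8 members in every library, by region and treatment (horizontal axis), with points for libraries, a bar for the mean and whiskers for the SD of 3 libraries (the whisker of Aurkb in CEA HT is cut at 0). All NC points of Top2a and Kif11 lie above all operated points of their region, Ccnb1 shows no such gap, and Cenpe and Aurkb part the regions.

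Among the kinases and checkpoint genes, Bub1 holds the spindle checkpoint at unattached kinetochores. It was at 1.58, 1.37 and 1.66 in NC, 0.539, 0.386 and 0.656 in HT, 0.889, 0.738 and 0.532 in EA, and 0.898, 0.517 and 0.666 in SEA CPM in the PVN. The groups did not overlap (log2 fold change -1.25, SE 0.24, adjusted p = 0.0772). Bub1 in the CEA was at 1.02, 2.01 and 1.46 in NC, 1.31, 1.28 and 0.661 in HT, 0.792, 0.869 and 1.02 in EA, and 0.396, 1.13 and 1.02 in SEA CPM, and the groups overlapped. Over the 8 genes of this role, 8 were lower in the PVN with a median log2 fold change of -1.38, and 7 were lower in the CEA with a median of -1.21. The exception in the CEA was Aurka, the spindle pole kinase, at 6.12, 7.100 and 7.23 in NC, 6.79, 10.6 and 7.87 in HT, 6.77, 5.62 and 6.52 in EA, and 5.67, 7.65 and 6.46 in SEA CPM. In the PVN Aurka was at 4.996, 4.28 and 6.25 in NC, 4.61, 4.43 and 3.64 in HT, 4.38, 5.53 and 4.204 in EA, and 4.19, 4.08 and 4.24 in SEA CPM, and its log2 fold changes were -0.25 (SE 0.15) and 0.05 (SE 0.17).

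Spindle, kinetochore and cytokinesis genes were lower in 11 of 11 cases in the PVN (median -0.56) and in 9 of 11 in the CEA (median -0.90). Ckap2l, a spindle protein, was at 1.14, 1.36 and 0.994 in NC, 0.131, 0.256 and 0.2403 in HT, 0.504, 0.401 and 0.283 in EA, and 0.264, 0.439 and 0.236 in SEA CPM in the CEA. The NC libraries were above all others there (log2 fold change -1.95, SE 0.37, adjusted p = 0.441 in the fit without a filter). In the PVN Ckap2l was at 0.316, 0.822 and 0.774 in NC, 0.359, 0.514 and 0.0597 in HT, 0.254, 0.738 and 0.319 in EA, and 0.0599, 0.259 and 0.242 in SEA CPM, with overlap. Ect2, which starts the cleavage furrow, was at 1.199, 1.83 and 1.13 in NC, 0.326, 0.192 and 0.1201 in HT, 0.288, 0.735 and 0.397 in EA, and 0.198, 0.0627 and 0.788 in SEA CPM in the CEA and at 0.443, 1.04 and 0.829 in NC, 0.299, 0.129 and 0.716 in HT, 0.0635, 0.632 and 0.213 in EA, and 0.1797, 0.453 and 0.363 in SEA CPM in the PVN. It parted the groups in the CEA only, with log2 fold changes of -2.08 (SE 0.49) there and -1.17 (SE 0.51) in the PVN, and neither passed after adjustment (adjusted p = 0.693 and 0.199 in the fit without a filter). The cytokinesis motor Kif20a, second in level among the members, was at 19.5, 14.2 and 14.9 in NC, 15.2, 11.6 and 15.9 in HT, 18.03, 13.02 and 14.9 in EA, and 13.7, 13.5 and 14.1 in SEA CPM in the PVN and 12.6, 9.41 and 12.1 in NC, 15.3, 9.99 and 10.9 in HT, 13.6, 10.8 and 13.2 in EA, and 10.9, 12.6 and 10.8 in SEA CPM in the CEA, and the groups overlapped in both. Its gene model overlaps that of Cdc23 on the other strand, which had a median of 756 counts, and the strand setting of the counting is not given in the sources used here, so its level is uncertain. The same holds for Ccna2, which overlaps Exosc9.

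The passenger complex genes Aurkb, Birc5 and Cdca8 were lower in 3 of 3 cases in each region, with medians of -0.81 and -0.48. Of the genes of mitotic chromosomes, Ncaph encodes a subunit of condensin I, which compacts chromosomes. Ncaph was at 2.403, 1.86 and 2.16 in NC, 1.02, 1.35 and 0.955 in HT, 0.444, 0.422 and 0.692 in EA, and 0.898, 2.85 and 1.45 in SEA CPM in the PVN, where SEA replicate 2 was above every NC library while all EA libraries were below every other library. In the CEA it was at 1.799, 2.899 and 3.05 in NC, 1.83, 0.768 and 1.68 in HT, 0.576, 1.47 and 0.907 in EA, and 2.18, 2.89 and 2.21 in SEA CPM.

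In the PVN 5 of 7 replication genes were higher in operated libraries and the median log2 fold change was 0.02, and in the CEA 1 of 7 was higher with a median of -0.29. Pcna was at 43.1, 40.5 and 43.1 in NC, 35.2, 37.5 and 36.7 in HT, 40.4, 38.8 and 36.7 in EA, and 35.8, 38.2 and 39.01 in SEA CPM in the PVN. The groups did not overlap, but the difference was small, with a log2 fold change of -0.17 (SE 0.06, adjusted p = 0.0880). In the CEA Pcna was at 45.1, 46.9 and 44.4 in NC, 37.8, 52.3 and 41.99 in HT, 40.5, 47.8 and 38.2 in EA, and 38.04, 41.5 and 52.6 in SEA CPM, and it was -0.06 (SE 0.13). Rrm2, a subunit of the enzyme that makes deoxynucleotides, lay farthest below 0 of the 7 in the CEA, at 0.9595, 1.24 and 0.331 in NC, 0.718, 0.192 and 0.2403 in HT, 0.3599, 0.0669 and 0.5104 in EA, and 0.3297, 0.314 and 0.6305 in SEA CPM. The groups overlapped there, and its log2 fold change was -1.18 (SE 0.54, adjusted p = 1.0 in the fit without a filter), on 1 to 21 counts a library. The 4 helicase genes were close to 0 in the PVN, where the largest log2 fold change was 0.04, for Mcm6. Without PVN NC replicate 2 it was 0.46 for Mcm5 (SE 0.31) and -0.08 for Mcm6 (SE 0.18). Mcm2 was then at 0.05 (SE 0.17) and Mcm3 at 0.06 (SE 0.34). In the CEA the log2 fold change was -0.01 for Mcm2 (SE 0.18), -0.29 for Mcm3 (SE 0.23) and -0.44 for Mcm5 (SE 0.28). Mcm6, the replication gene that was higher there, had 0.20 (SE 0.20). All these helicase values are from fits without a filter. Tyms, which makes the thymidylate for DNA, went the other way from the mitosis genes in the PVN, at 3.23, 7.89 and 3.37 in NC, 7.54, 8.16 and 8.41 in HT, 6.35, 5.59 and 5.75 in EA, and 7.61, 7.57 and 6.84 in SEA CPM. NC replicates 1 and 3 were below all operated libraries and NC replicate 2 was within them. In the CEA Tyms was at 4.32, 11.1 and 12.6 in NC, 4.31, 4.67 and 8.83 in HT, 5.61, 10.8 and 5.67 in EA, and 6.26, 4.45 and 10.7 in SEA CPM, with wide spread in every treatment. Its log2 fold changes were 0.53 (SE 0.24, adjusted p = 0.156) and -0.46 (SE 0.37).

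**Figure D3:**
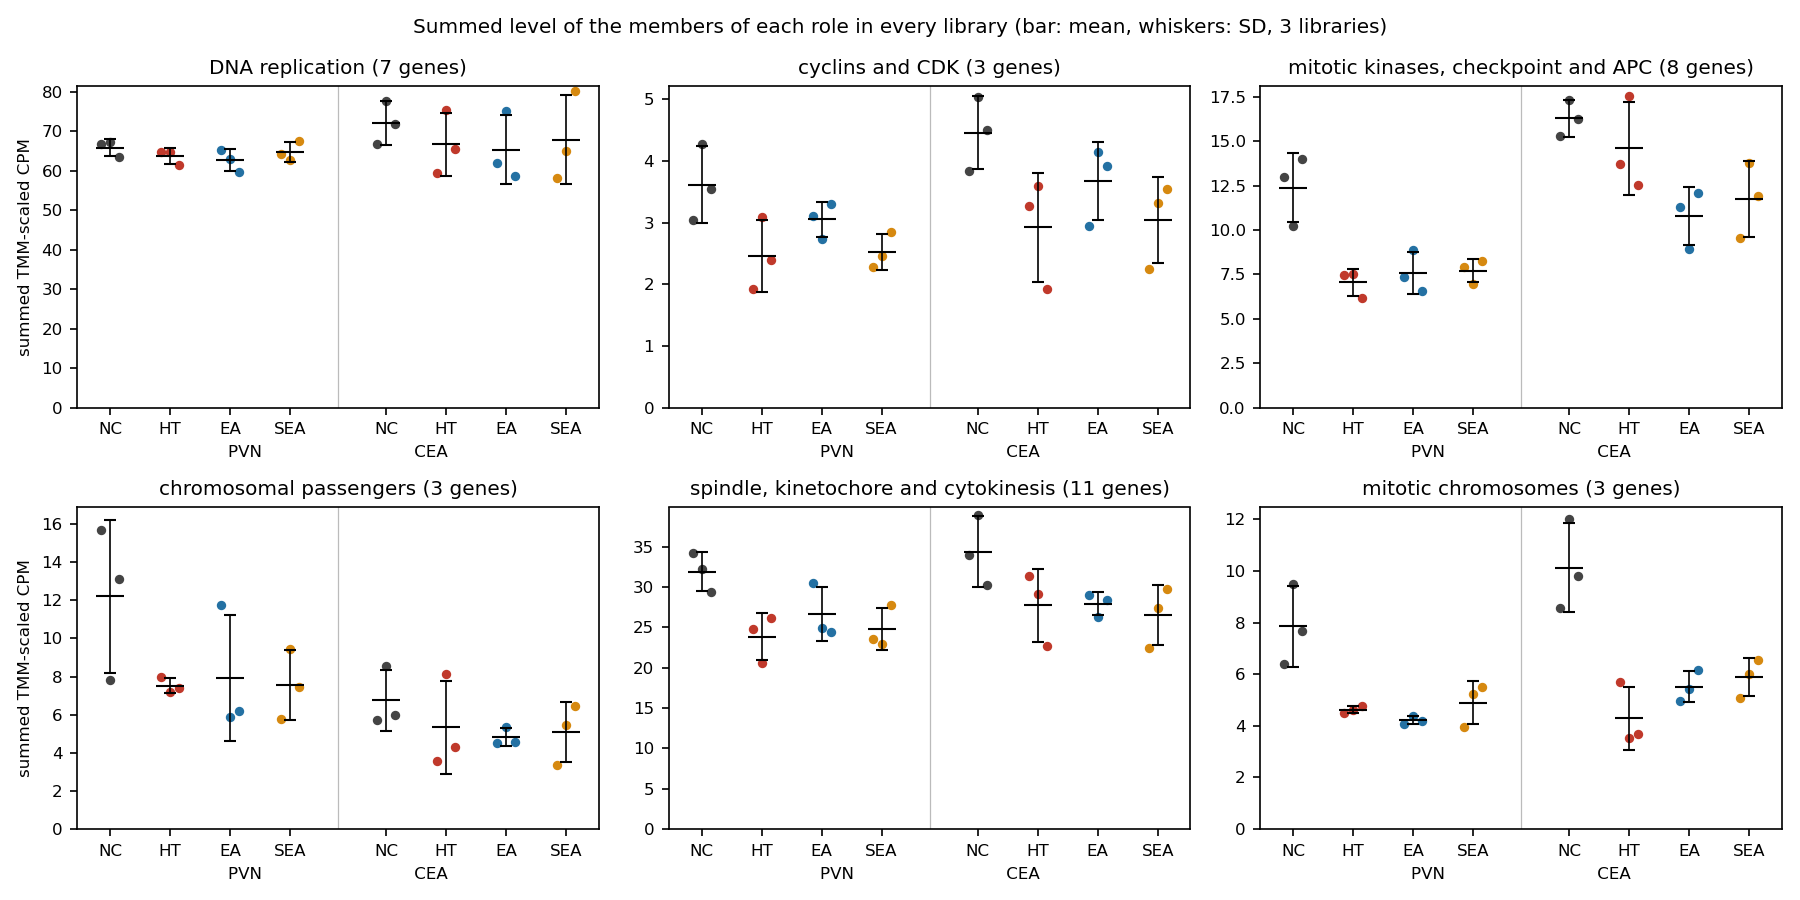
Summed CPM of the members of each role (vertical axis, from 0) in every library, by region and treatment (horizontal axis), with the mean and SD of 3 libraries. The DNA replication sums of NC and operated libraries overlap in both regions, while those of the mitotic chromosome genes do not, at 6.39 to 9.49 CPM in PVN NC against 3.95 to 5.51 CPM after surgery.

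One PVN control library decided the calls in that region. Without NC replicate 2 and without the filter, 15 of 35 members had an adjusted p under 0.05 in operated against NC, 14 lower and Tyms higher, but 5542 of 25762 genes (21.5%) were then called in all. With the filter 13 of 31 were called, where 33.7% of all genes were. Of these 13, 3 (Top2a, Cdk1 and Nusap1) were among the members that passed the PVN filter only through their NC level. The log2 fold change without that library and the filter was -1.72 for Top2a (SE 0.43), -1.89 for Cdk1 (SE 0.52), 1.10 for Tyms (SE 0.18) and -0.08 for Mki67 (SE 0.24). Leaving out NC replicate 1 or 3 gave 0 members. In the CEA no library that was left out gave a call for a member.

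In the fits without a filter, HT against NC had a median of -0.72 over the 35 members in the PVN and -0.63 in the CEA. EA against NC had -0.53 and -0.58, and SEA against NC had -0.57 and -0.61. These comparisons share their NC libraries. None called a member by edgeR. An unadjusted p under 0.05 was reached in the PVN by 15 members that were lower with HT, 12 with EA and 14 with SEA, where 4.33%, 4.51% and 5.01% of all genes were. In the CEA 12, 12 and 13 members were lower at that level, where 1.42%, 2.06% and 1.27% of all genes were. The only member higher at that level was Tyms with HT in the PVN. Of all genes 5.92%, 5.02% and 6.28% were higher in the PVN with HT, EA and SEA, and 2.0%, 1.99% and 1.04% in the CEA. Among all genes an adjusted p under 0.05 was reached by 0.012% with HT, 0.0119% with EA and 0.0% with SEA in the PVN, and by 0.0%, 0.00606% and 0.0% in the CEA. With HT in the PVN the log2 fold change was -1.69 for Top2a (SE 0.38) and -1.53 for Bub1 (SE 0.37), both with an adjusted p of 0.486 in the fit without a filter. With HT in the CEA it was -2.42 for Ckap2l (SE 0.55, adjusted p = 0.868) and -2.66 for Ect2 (SE 0.57, adjusted p = 0.865) in that fit. DESeq2 called 1 member over these 6 comparisons, Ncaph in PVN EA against NC, where it called 0.339% of all genes, and this gene had a log2 fold change of -2.01 (SE 0.35, adjusted p = 0.212) by edgeR without a filter. Leaving out PVN NC replicate 2, without the filter, gave 8 called members of 35 in HT, where 15.2% of all genes were called, 6 in EA, where 15.1% were, and 5 in SEA, where 17.5% were.

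To ask whether current through the needles moved these genes after surgery, EA was set against HT and against SEA. No member was called by edgeR or DESeq2 in any of these comparisons, or in SEA against HT, in either region, though DESeq2 gave 3 of 25 members no adjusted p in PVN EA against HT. In EA against HT 0 of 25 members tested passed in the PVN, against 0.0961% of all genes, and 0 of 25 in the CEA, against 0.0%. The median over all 35 members was 0.09 in the PVN and -0.02 in the CEA. At an unadjusted p under 0.05 there were 2 PVN members, both lower with EA, and 1 CEA member, higher with EA, where 5.04% and 3.4% of all genes reached that level in the fits without a filter. The PVN pair was Tyms, at -0.44 (SE 0.16, adjusted p = 0.743), and Ncaph, at -1.07 (SE 0.40, adjusted p = 0.766). The CEA gene was Top2a, at 1.25 (SE 0.57, adjusted p = 0.872), followed by Kif11 at 1.06 (SE 0.51, adjusted p = 0.872). For both, the EA libraries stayed below all CEA NC libraries. In SEA against HT 0 of 23 and 0 of 24 members passed (0.0% of all genes in each region), with 2 PVN members higher and 1 CEA member lower at an unadjusted p under 0.05 (3.89% and 2.92% of all genes). These were Cdca3 and Prc1 in the PVN and Ccna2 in the CEA. In EA against SEA 0 of 24 and 0 of 25 passed (0.0% in each), with 1 PVN member and 2 CEA members at an unadjusted p under 0.05 (4.91% and 2.01% of all genes). Ncaph was among them in both, at -1.71 (SE 0.45, adjusted p = 0.357) in the PVN and -1.27 (SE 0.39, adjusted p = 0.9999) in the CEA. The other CEA member was Ccna2, at 2.36 (SE 0.80, adjusted p = 0.9999).

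Whether the regions responded differently was tested directly. In the interaction of region with operated against NC, 0 of 34 members were called (0.0% of all genes), and 2 had an unadjusted p under 0.05, Ccna2 (-1.40, SE 0.56, adjusted p = 0.381) and Tyms (-0.98, SE 0.44, adjusted p = 0.441) in the fit without a filter, where 10.6% of all genes did. Without PVN NC replicate 2, Tyms was called, with -1.55, as were 1795 of 18040 genes, but no member was without the filter (adjusted p = 0.0503 for Tyms). In the interaction of region with HT against NC, 0 of 34 members were called (0.0% of all genes) and 1, Tyms, had an unadjusted p under 0.05 (9.38%). In that of region with EA against HT, 0 of 28 were called (0.0%) and 0 had an unadjusted p under 0.05 (4.06%). DESeq2 called 0 members in each, and in the first it gave 9 of 34 no adjusted p.

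The regions themselves differed for many members, but so did most genes. With 12 libraries a region and treatment as a covariate, 19 of 34 members had an adjusted p under 0.05 between the CEA and the PVN, where 56.3% of all genes did, so the count was close to the background. Without the filter 20 of 35 were called, the same 19 and Melk, where 37.9% of all genes were. Of these, 15 were higher in the CEA, where 26.9% of all genes tested were higher, and without the filter 16 were, against 19.0%. Cenpe, a motor at the kinetochore, had the smallest p. It ran from 1.35 through a median of 1.88 to 2.86 CPM over the PVN libraries and from 3.46 through 4.47 to 6.92 CPM over those of the CEA, so that no library overlapped, as for 4.29% of all genes (log2 fold change 1.20, SE 0.15, adjusted p = 2.2e-07). Aurkb, the kinase of the passenger complex, had the opposite pattern, with a lowest, median and highest level of 3.79, 5.36 and 11.95 CPM in the PVN and 0.300, 1.73 and 3.37 CPM in the CEA. Its groups did not overlap either, as for 5.23% of all genes (log2 fold change -1.90, SE 0.26, adjusted p = 1.0e-06). The other passenger members, Cdca8 and Birc5, were higher in the CEA. Cdca8 had a median of 2.01 CPM there (range 1.25 to 3.25) and of 1.21 CPM in the PVN (range 0.707 to 2.21), and Birc5 had 1.37 CPM (range 0.989 to 2.82) and 0.903 CPM (range 0.479 to 1.82). The log2 fold changes were 0.70 (SE 0.15, adjusted p = 0.000333) and 0.64 (SE 0.17, adjusted p = 0.00246). Incenp, the scaffold of the complex and not in the set, was lower in the CEA (-0.24, SE 0.07, adjusted p = 0.00628).

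Aurka had a median of 6.78 CPM in the CEA (range 5.62 to 10.6) and of 4.33 CPM in the PVN (range 3.64 to 6.25), a log2 fold change of 0.62 (SE 0.10, adjusted p = 1.6e-05). Its activator Tpx2 was higher too, with medians of 2.78 CPM (range 1.40 to 4.44) and 1.48 CPM (range 1.13 to 2.91), at 0.79 (SE 0.18, adjusted p = 0.000748). Plk1, a kinase that acts at many steps of mitosis, had medians of 1.95 CPM (range 0.602 to 3.26) and 0.959 CPM (range 0.585 to 2.15), at 0.89 (SE 0.20, adjusted p = 0.000740). All 3 overlapped between the regions in single libraries. Cdc20, which activates the anaphase-promoting complex, had medians of 1.67 CPM (range 1.01 to 2.84) and 1.09 CPM (range 0.698 to 2.02), at 0.56 (SE 0.14, adjusted p = 0.00117). The spindle protein Nusap1 had 0.512 CPM (range 0.132 to 2.66) and 0.211 CPM (range 0 to 0.822), at 1.17 (SE 0.31, adjusted p = 0.00296).

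The 4 members that were lower in the CEA were Aurkb, Rrm2, Mcm2 and Kif20a. Rrm2 had medians of 0.346 CPM in the CEA (range 0.0669 to 1.24) and 1.15 CPM in the PVN (range 0.738 to 1.68), a log2 fold change of -1.26 (SE 0.28, adjusted p = 0.000487). Mcm2 had 6.12 CPM (range 4.55 to 6.96) and 8.24 CPM (range 6.598 to 9.64), at -0.38 (SE 0.08, adjusted p = 0.000339). Kif20a had 11.5 CPM (range 9.41 to 15.3) and 14.6 CPM (range 11.6 to 19.5), at -0.33 (SE 0.09, adjusted p = 0.00247). The other 7 called members, Pbk, Kif11, Pcna, Mcm3, Top2a, Cdk1 and Ncaph, were higher in the CEA by 0.18 to 1.51 on the log2 scale. Pbk reached the cutoff of the filter in 3 CEA libraries and 1 PVN library, and without the filter it was at 1.58 (SE 0.45, adjusted p = 0.00652). In NC rats alone 2 of 34 members were called, where 26.4% of all genes were, and these were Aurkb (-2.004, SE 0.45, adjusted p = 0.0168) and Cenpe (1.02, SE 0.25, adjusted p = 0.0220). Neither was called without PVN NC replicate 1 or 3, Cenpe was not called without CEA NC replicate 1 or 2, and Aurkb was not called without CEA NC replicate 3.

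**Figure D4:**
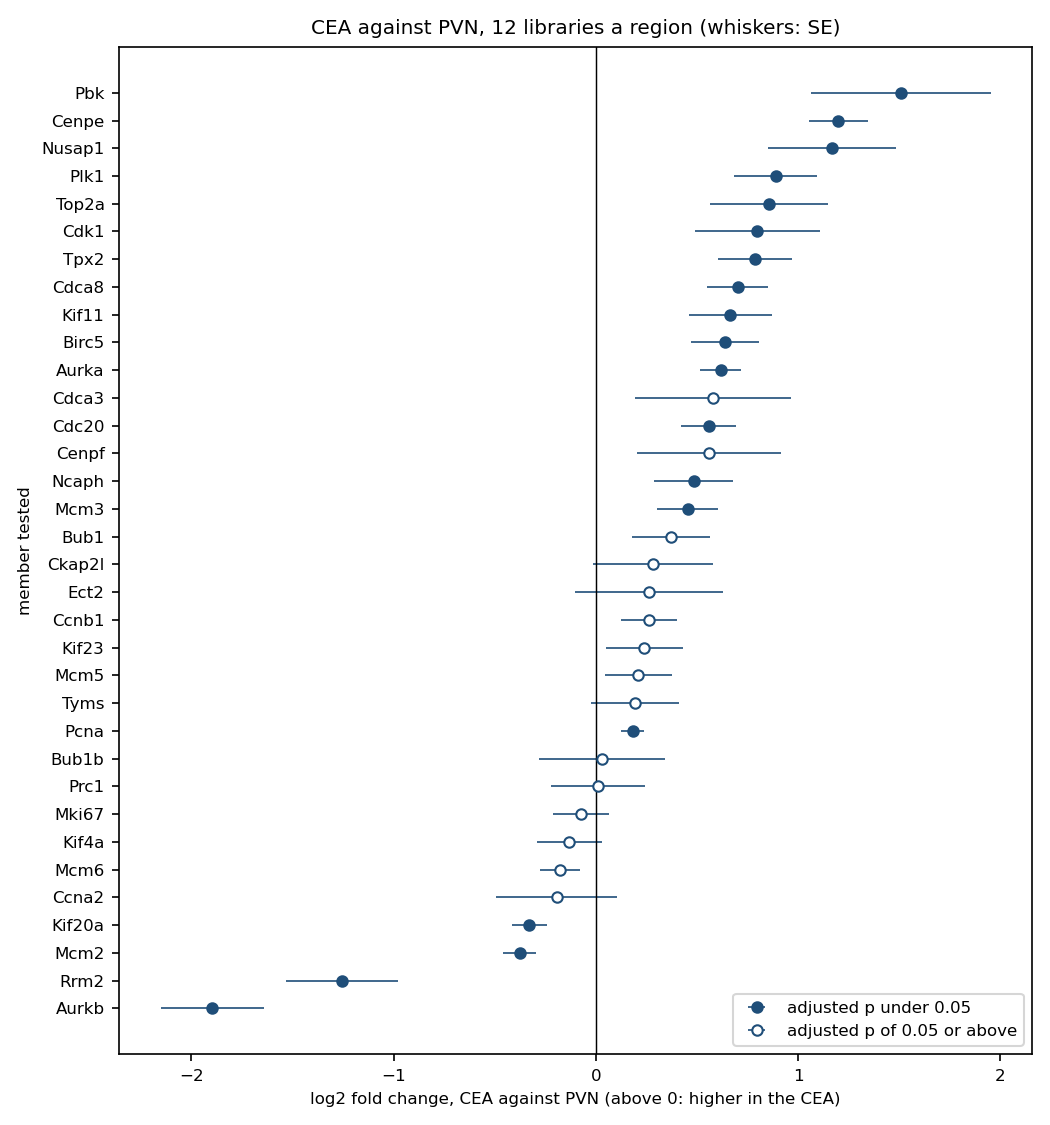
Log2 fold change of the CEA against the PVN (horizontal axis) for the 34 members tested (vertical axis), with SE as whiskers and filled points for an adjusted p under 0.05. Of the 19 filled points 15 lie above 0, and Aurkb is the farthest to the left at -1.90.

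Genes of the same processes outside the set were summarised from lists. Of 29 further mitosis genes, 24 were lower in the operated PVN libraries with a median log2 fold change of -0.16, and 25 in the CEA with a median of -0.34, in the fits without a filter. In each region 7 of them were lower at an unadjusted p under 0.05, where 9.96% of all genes were in the PVN and 1.42% in the CEA. Of 16 further replication genes, 9 were lower in the PVN and 10 in the CEA, with medians of -0.16 and -0.11. Cyclins, kinases and transcription factors of cell cycle entry had medians of -0.05 and 0.04 over 11 genes, and cell cycle inhibitors had 0.03 and -0.06 over 10. No gene of these lists had an adjusted p under 0.05 in any comparison of treatments.

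Markers of other cell types were read from the same fits. Oligodendrocyte precursor genes had a median log2 fold change of -0.06 in the operated PVN and -0.11 in the operated CEA, with 5 of 10 and 6 of 10 lower, and their summed level was 736 to 1027 CPM in PVN NC and 767 to 929 CPM after surgery. In the CEA it was 1361 to 1932 CPM and 1326 to 1956 CPM. Of the 6 PVN neuroendocrine genes 5 were lower in the operated PVN (median -0.27), with Trh and Crh at an unadjusted p under 0.05, and their summed level was 1002 to 1333 CPM in NC and 417 to 1174 CPM after surgery, lowest in HT replicate 3. Microglial genes had medians of 0.07 and 0.16, with 3 of 8 lower in each region. The 6 endothelial genes with a count had -0.05 and 0.03, and Cldn5 was at 0 in all 24 libraries. All 7 ependymal and tanycyte genes were lower in the operated PVN (median -0.27, 3 at an unadjusted p under 0.05), with a summed level of 166 to 244 CPM in NC and 123 to 185 CPM after surgery, but 6 of 7 were higher in the operated CEA. Red blood cell genes were lower in 5 of 5 rows in the PVN and 3 of 5 in the CEA, at summed levels of 970 to 1342 CPM in PVN NC and 511 to 1307 CPM after surgery. In the CEA they were at 1056 to 1494 CPM and 731 to 1270 CPM. Choroid plexus genes were lower in 7 of 8 cases in the operated CEA and 4 of 8 in the PVN. Of 10 blood leukocyte genes 6 were lower in the operated PVN and 4 in the operated CEA (medians -0.05 and 0.35), and 2 of them, S100a8 and S100a9, were higher at an unadjusted p under 0.05 in both regions. Astrocyte genes had medians of 0.01 and -0.19, with 3 of 6 and 5 of 6 lower. At an unadjusted p under 0.05, Gfap and Aqp4 were lower in both regions and Slc1a3 and Slc1a2 higher in the PVN, and Gfap in the PVN also had an adjusted p under 0.05 in that fit. Slc1a3 was at 682 to 791 CPM in PVN NC and 797 to 896 CPM after surgery, and Gfap at 419 to 508 CPM and 225 to 387 CPM. Neuroblast genes had medians of -0.22 and 0.10, and mature oligodendrocyte genes had -0.08 and -0.04. The part of these cells in the members' levels was not tested.

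Across the 12 libraries of a region, Top2a and Mki67 were each set against Pdgfra, a marker of oligodendrocyte precursors, and Cx3cr1, a marker of microglia, on log2 CPM. Relations with Cldn5 could not be computed. Of the 8 relations, 0 passed a permutation test after Benjamini-Hochberg adjustment. Mki67 and Pdgfra in the CEA had the largest Pearson's r in size (r = 0.49, permutation p = 0.105, adjusted 0.346, and rho = 0.50, permutation p = 0.106, adjusted 0.281). It was 0.70 without the 2 libraries farthest from the median of Pdgfra and 0.25 within the 9 operated libraries. In the PVN Top2a and Pdgfra had r = -0.49 (permutation p = 0.105, adjusted 0.346) and rho = -0.53 (permutation p = 0.0807, adjusted 0.281), and r was -0.34 without the 2 farthest libraries and -0.42 within the operated ones. The largest rho in size was this one. Within the 9 operated libraries r was farthest from 0 for Mki67 and Cx3cr1 in the PVN, at -0.82, with -0.38 over all 12 libraries (permutation p = 0.232, adjusted 0.346) and -0.18 without the 2 farthest.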

How the data were processed

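Strand-specific mRNA libraries were made from the PVN and CEA of rats a day after the last session. The authors deposited whole-number read counts per gene, aligned with HISAT2 and counted with featureCounts. Versions, strand setting and treatment of multi-mapping reads are not given in the sources used here. The methods name the rat assembly mRatBN7.2, the processing notes list GRCh38 and hg38, and the table names no build, so no coordinates of it are given. A second header line inside the table was dropped. Columns were taken from the first header, and the dropped line exchanges the names of CEA EA replicates 2 and 3, which changes no group. No libraries were identical.

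From these counts, genes were filtered with filterByExpr (minimum count 10), scaled by TMM and tested in each comparison with edgeR 4.0.16 (glmQLFit and glmQLFTest, two-sided, Benjamini-Hochberg over all genes tested, threshold 0.05) in R 4.3.3. Region fits had treatment as a covariate. Columns of gene position and length were used for length and overlap only. The members and gene lists were chosen with earlier results of these data known, so no p is given for a list. Values were given for Mki67, Top2a, Cdk1 and Ccnb1, the 4 members highest in CPM per kb, the 12 members with the smallest p among those called, and the 2 with the smallest p when HT was set against NC, or EA against HT, in each region. Other members given with values, such as Cdca3 and Pbk, and names in counts of non-overlap were chosen after their values were seen.

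Alternatives were DESeq2 1.42.0, fits without the low-count filter or with a minimum mean of 0.5 CPM, RLE scaling, a spread shared by all groups of a region, a replicate block and leaving out each library. Comparisons of SEA with NC, the interaction with all operated libraries the CPM filter and fits without PVN NC replicate 2 and the filter together were added after seeing the data. On simulated counts for PVN operated against NC (17211 genes, 200 changed), 72.5% of 2-fold and 94% of 4-fold changes were called. Of the calls 7.05% and 3.59% were wrong. For PVN HT against NC (16727 genes, 200 changed) the shares were 49% and 93.5%, with 4.85% and 6.5% of calls wrong. The changed genes were drawn from all genes that passed the filter. These shares therefore do not measure how often changes of members with low counts would be called. Relations used log2 CPM (prior count 2) and 100000 permutations. Of 12 planned, 4 with Cldn5 were not computed because its count was 0 throughout. Same-numbered libraries had deviations correlated above 0.1 in every pair only for CEA HT against NC (0.180 to 0.294) and the CEA against the PVN in NC (0.130 to 0.293). Promoters came from RefSeq (GRCr8).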

Additional observations from a re-analysis of the deposited data

How the results depend on the processing

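Counts of called members in HT, EA and SEA against NC, in all operated libraries against NC and between regions were recomputed under each alternative. The call counts of treatments in the CEA, of EA and SEA against HT and of EA against SEA stayed at 0 under every alternative run. Leaving out single libraries moved the count from 0 to 5 for PVN HT against NC, from 0 to 3 for PVN EA against NC, from 0 to 7 for PVN SEA against NC, from 0 to 13 for PVN operated against NC and from 0 to 1 for the interaction of region with operated. The higher value came without PVN NC replicate 2 each time, and the cause was not tested. Members tested were then 29, 31, 29, 31 and 35. The shares of all genes called were 20.2%, 19.0%, 24.3%, 33.7% and 9.95%. Of the called members, 2 in HT, 3 in SEA and 3 in operated against NC were among those that passed the PVN filter only through NC. Without that library and the low-count filter together the counts were 8, 6, 5, 15 and 0 of 35. The shares of all genes were then 15.2%, 15.1%, 17.5%, 21.5% and 5.41%. The count between regions ran from 17 to 21 over all libraries, and from 0 to 3 in NC. In NC it was 0 without PVN NC replicate 1 or 3 and 1 without CEA NC replicate 2 or 3. DESeq2 gave 1 member in PVN EA against NC, and no adjusted p to 24 of 30 members in PVN operated against NC. With the replicate block the counts stayed at 0 in CEA HT against NC and 2 in the CEA against the PVN in NC, and it was 18 against 19 between regions over all libraries. The block changed no other count of called members. Fold changes near 0 turned their sign. Ccnb1 in the operated PVN was 0.0871 when NC replicate 2 was left out (0.091 also without the filter) and -0.268 at the other extreme. In the operated CEA, leaving out libraries gave -0.109 to 0.0958 for Ccnb1 (-0.0819, -0.0466 and -0.024 without HT, EA and SEA replicate 2), -0.0317 to 0.0978 for Aurka (-0.0103 without HT replicate 2) and -0.0311 to 0.148 for Kif20a. Ccnb1 was -0.000206 there with the replicate block.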
